A study of Mus musculus with 32 samples.

Results

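The genes described here carry glucose into the cell and start and finish its breakdown: the transporters Slc2a1 and Slc2a3, the hexokinases Hk1, Hk2 and Hk3, the phosphofructokinase subunits Pfkl and Pfkp, and the later enzymes Pgk1, Pkm and Ldha. They were chosen by name, with earlier results of these data known. Of these 10 genes, 9 had a probe among those shared by both beadchip versions and annotated to them, with 11 probes in all, of 15187 named genes and 24159 shared probes. Hk1 and Pfkp had 2 probes each and Ldha had none, so Ldha is not analysed here. The brightest probe of a gene stands for it below unless a probe is named. For 8 of the 9 genes that probe was detected on all 32 arrays, and for Hk1 on 22.

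Expression was read from Illumina MouseWG-6 beadchips hybridised with RNA of cells sorted from BALB/c mice between 7 and 12 weeks old, and each array held RNA pooled from several mice. From IL5T mice, in which a transgene driven by the CD2 promoter makes T cells produce IL-5 constitutively, there were 5 arrays of common myeloid progenitors (CMPs), 5 of granulocyte-macrophage progenitors (GMPs), 3 of eosinophil progenitors (EoPs), 3 of eosinophils with medium Siglec-F from bone marrow (EoM BM), 4 of eosinophils with high Siglec-F from bone marrow (EoH BM) and 3 of the same from peripheral blood (EoH PB). From wild-type (WT) mice without the transgene there were 3 arrays each of CMPs, GMPs and EoPs. WT eosinophils of this strain are not analysed here, so IL5T and WT mice can be compared in progenitors only. The progenitors had been sorted as lineage-negative, Sca1- and cKit+ cells, EoPs by IL-5Rα as well, and the eosinophils by Siglec-F and IL-5Rα. For EoH BM the title and the cell type label say high Siglec-F, which was followed, while the antibody label says medium. For IL5T CMP replicate 2 the title says CMP, which was followed, while the name of its deposited intensities contains gmp.

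Glucose enters blood cells down its gradient through facilitative transporters, among which GLUT1, encoded by Slc2a1, and GLUT3, encoded by Slc2a3, have a high affinity for glucose. Hexokinase phosphorylates it so that it stays in the cell, phosphofructokinase commits it to glycolysis, and phosphoglycerate kinase and pyruvate kinase each yield ATP before pyruvate is turned to lactate or enters the mitochondrion. Granulocytes are known to rely on glycolysis for much of their ATP, and several of these genes are textbook targets of the hypoxia-inducible factor HIF-1.

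The 250 bases before the annotated start are shown for genes called in the same direction from EoP to both EoM BM and EoH BM, Slc2a1 and Hk2 upward and Pgk1 downward, and for both annotated starts of Hk1, whose 2 probes moved in opposite directions. They were taken from RefSeq on GRCm38.p6, and read 5′ to 3′ toward the start. Capitals mark ACGTG and GCGTG on either strand, the core letters to which HIF-1 is known to bind. No such window was at hand for Slc2a3.
Slc2a1, chr4:119108495-119108744, plus strand: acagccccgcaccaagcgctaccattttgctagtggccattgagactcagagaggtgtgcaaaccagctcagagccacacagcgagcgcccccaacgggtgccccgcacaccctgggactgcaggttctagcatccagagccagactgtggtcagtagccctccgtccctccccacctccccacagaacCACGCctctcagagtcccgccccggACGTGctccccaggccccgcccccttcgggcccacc
Hk2, chr6:82774455-82774704, minus strand: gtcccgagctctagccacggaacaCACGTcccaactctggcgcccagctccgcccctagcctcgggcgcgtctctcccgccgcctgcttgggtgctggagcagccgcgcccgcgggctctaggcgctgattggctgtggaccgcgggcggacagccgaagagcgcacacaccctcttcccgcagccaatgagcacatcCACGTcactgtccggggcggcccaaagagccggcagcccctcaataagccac
Pgk1, chrX:106186850-106187099, plus strand: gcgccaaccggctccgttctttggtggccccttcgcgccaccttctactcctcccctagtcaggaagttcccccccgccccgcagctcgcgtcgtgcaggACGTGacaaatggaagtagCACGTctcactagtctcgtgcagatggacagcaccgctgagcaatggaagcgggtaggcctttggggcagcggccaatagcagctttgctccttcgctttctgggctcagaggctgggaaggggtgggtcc
Hk1, chr10:62379909-62380158, minus strand: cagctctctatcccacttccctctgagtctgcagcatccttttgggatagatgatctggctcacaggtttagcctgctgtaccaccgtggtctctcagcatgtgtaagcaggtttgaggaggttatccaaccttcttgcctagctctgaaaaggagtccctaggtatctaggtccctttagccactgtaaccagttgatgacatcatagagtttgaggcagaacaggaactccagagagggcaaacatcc
Hk1, chr10:62340422-62340671, minus strand: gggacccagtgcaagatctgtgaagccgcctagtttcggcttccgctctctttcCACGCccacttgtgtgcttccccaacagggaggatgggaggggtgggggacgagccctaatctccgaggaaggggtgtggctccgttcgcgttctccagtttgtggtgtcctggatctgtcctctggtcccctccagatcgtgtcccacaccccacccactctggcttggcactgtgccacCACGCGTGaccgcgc
The Slc2a1 window held ACGTG 36 bases before the start and GCGTG, on the opposite strand, at 61. Hk2 and Pgk1 each held ACGTG at 2 places, and the second Hk1 start held GCGTG at 3, of which the last 2 overlap on opposite strands, whereas the first held neither. Over 32851 windows of the same length, 16.6% held ACGTG and 28.2% held GCGTG, and 16.7% held at least 2 matches of both together and 6.6% at least 3. The windows of Hk3 and Pfkl, which were called from EoP to EoM BM but not to EoH BM, held 1 match each and are not shown, nor are those of Pfkp, Pkm and Ldha, which held 0 to 5. The letters were thus present before genes that rose and before a gene that fell, and binding was not measured.

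Levels are given as log2 of the background-corrected, quantile-normalised probe intensity after removal of the beadchip version effect, and differences as log2 changes from limma, with p-values adjusted over all 24159 probes by Benjamini and Hochberg and called under 0.05. A probe was detected on an array at a detection p under 0.05, and between 8360 and 10929 shared probes were detected per array. By the prefix of their names in the deposited intensities the arrays fell into 3 sets, which were taken here as runs. Run 1 held all eosinophils, on version 1.1, and run 2 held 3 IL5T arrays each of CMPs and GMPs, on version 1.1. Run 3 held all WT cells, IL5T EoPs and the remaining 2 IL5T arrays each of CMPs and GMPs, on version 2.0. The step from EoP to eosinophil therefore crosses run and version, and run and cell type cannot be told apart there. Only IL5T CMPs and GMPs lay on both versions, so the version effect was estimated from run 2 against run 3. It cannot be told apart from a difference between those runs, and it was also applied to the eosinophils of run 1. It also crosses sex in part, since the Y-linked Eif2s3y was detected on all 3 IL5T EoP arrays and on none of the 10 eosinophil arrays. The 5 measured progenitor markers, Mpo and Kit among them, had a mean level of 9.07 to 9.32 on IL5T EoP arrays and 5.92 to 7.95 on eosinophil arrays, and eosinophil markers 9.01 to 9.26 and 9.37 to 11.35. Of the 6 measured eosinophil markers, Siglecf and Ccr3 were not detected on any EoP array, while Il5ra, by whose product EoPs and eosinophils were sorted, was not detected on any EoH PB array. In EoM BM and in EoH BM each of the 6 was detected on at least 1 array. Markers of neutrophil secondary granules, such as Ltf and Ngp, had mean levels of 5.95 to 6.69 in IL5T EoPs, 11.91 to 12.70 in EoM BM, 11.04 to 12.56 in EoH BM and 9.74 to 11.19 in EoH PB, with 4 of 5 measured genes detected on every eosinophil array and Mmp8 on none. B cell markers also differed, at 6.25 to 6.35 over 3 genes in IL5T EoPs and 8.29 to 10.61 on eosinophil arrays, and so did those of monocytes and macrophages, at 5.45 to 5.67 over 8 genes in IL5T EoPs, 6.07 to 6.41 in EoM BM and 8.01 to 8.73 in EoH PB. Red cell markers were at 5.92 to 6.77 over 4 genes in IL5T EoPs, 8.11 to 10.72 in EoM BM, 9.17 to 11.71 in EoH BM and 6.13 to 7.80 in EoH PB. T cell markers were at 4.68 to 4.87 over 4 genes in IL5T EoPs, 6.62 to 6.73 in EoM BM, 5.82 to 6.17 in EoH BM and 7.49 to 8.14 in EoH PB, and mast cell and basophil markers fell, from 8.98 to 9.63 over 6 genes in IL5T EoPs to 5.56 to 6.26 on eosinophil arrays, with 4 of 6 called lower from EoP to EoM BM. The part of these lists in the results on eosinophils was not tested. In sorted bulk RNA, fewer cells of a type and less RNA per cell cannot be told apart.

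The largest differences among these genes lay between EoPs and eosinophils. From EoP to EoM BM, Slc2a1, Slc2a3, Hk2 and Hk3 rose, which was 4 of 9 genes against 15.5% of all genes, and Hk1, Pfkl and Pgk1 fell, which was 3 of 9 against 17.5%. The median change of the 9 genes was 0.43 on the log2 scale, against 0.02 over all genes. That middle value is the change of Pkm, which was not called. Of the 15187 named genes, 7906 were detected on every array of at least 1 group, as were all 9 members. With each array brought to 1 shared median, Pkm was again the middle gene, at -0.03. The median change was then 0.05 over all genes and -0.61 over the detected ones. The shares of all genes, here and below, include genes near background, so they may be too low a mark for members this bright. Shares over detected genes alone were not computed. In 5 of 9 genes every EoM BM array was above every EoP array, against 25% of genes, and in 3 every one was below, against 24%. Each of the 7 calls was kept in all 32 fits that left out 1 array. With a block for replicate number Hk3 (1.22) and Pgk1 (-1.09) were no longer called, and Pgk1 was not called against a minimum change of 0.5. From EoP to EoH BM, with the same EoP arrays, Slc2a1, Slc2a3 and Hk2 rose and Hk1 and Pgk1 fell, 3 of 9 against 15.9% and 2 of 9 against 18.4%. There 4 genes were higher and 4 lower on every array, against 22.3% and 22.5%.

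**Figure D1:**
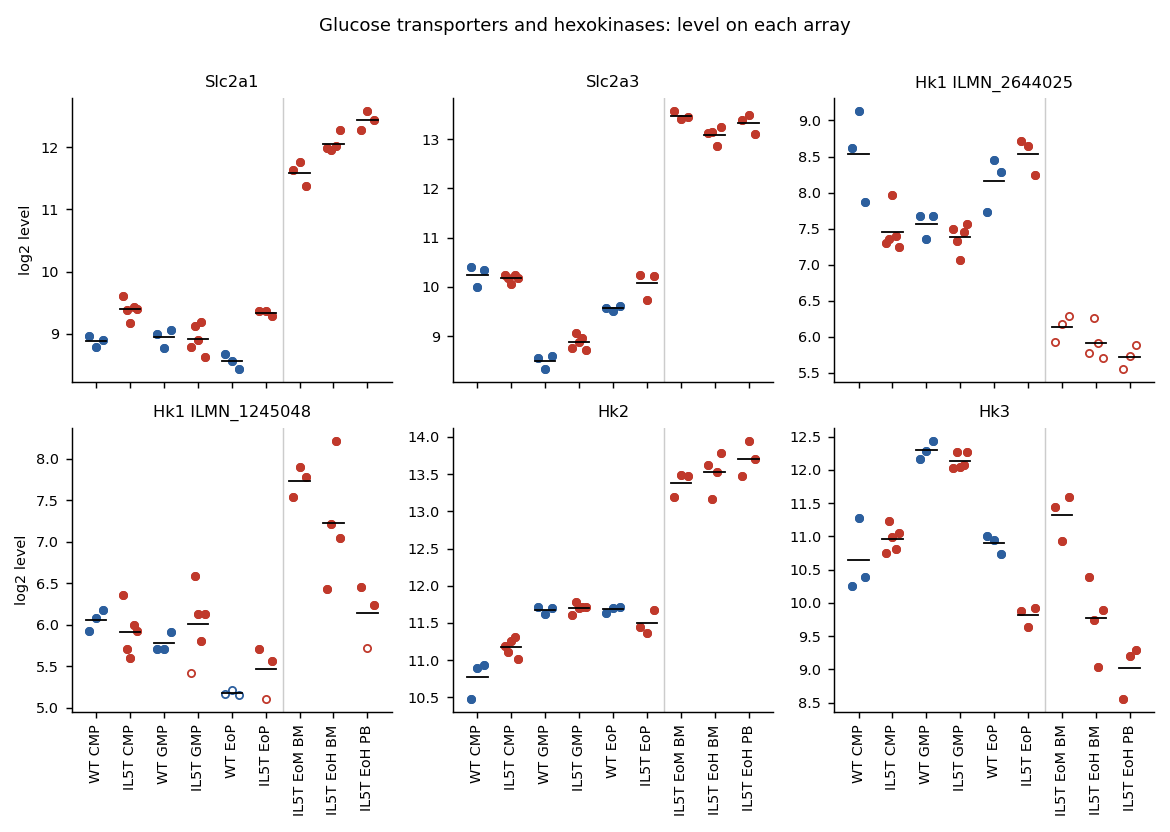
Log2 level (y axis) of the 2 transporters and of the 4 hexokinase probes on each array (points) by group (x axis), with the group mean as a line, IL5T in red, WT in blue and open points where the probe was not detected. Slc2a1, Slc2a3 and Hk2 lie higher on all 10 eosinophil arrays than on any of the 22 progenitor arrays, while Hk1 ILMN_2644025 is open on all 10.

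Slc2a3 had the largest rise. Its log2 levels were 10.25, 9.73 and 10.23 in IL5T EoPs, against 13.57, 13.41 and 13.45 in EoM BM. All EoM BM arrays were above all EoP arrays, and the change of 3.41 ± 0.17 (SE, 10.6-fold) passed the test (adjusted p = 4.33e-14 from limma). Slc2a3 then stayed high, at 13.12, 13.14, 12.86 and 13.24 in EoH BM and 13.38, 13.49 and 13.11 in EoH PB. All 4 EoH BM arrays were below all 3 of EoM BM, but the difference of -0.39 missed the threshold (adjusted p = 0.0511). Over the 32 fits with 1 array left out, the adjusted p ranged from 0.024 to 0.179.

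Slc2a1 rose in steps instead of once. On the arrays of IL5T EoPs it was at 9.36, 9.37 and 9.29, in EoM BM at 11.63, 11.76 and 11.37, in EoH BM at 11.98, 11.95, 12.02 and 12.28, and in EoH PB at 12.27, 12.58 and 12.44. The groups overlapped only between EoH BM and EoH PB. From EoP to EoM BM the change was 2.24 ± 0.17 (4.74-fold, adjusted p = 9.18e-11), and from EoM BM to EoH PB, within 1 run, 0.85 ± 0.13 (1.8-fold, adjusted p = 3.66e-05; 0.00383 when only the arrays of run 1 were fitted). In IL5T CMPs and GMPs the probe was brighter by 1.12 on version 2.0, in run 3, than on version 1.1, in run 2. With no version term the change of Slc2a1 from EoP to EoM BM was 1.12. The step from EoM BM to EoH BM, of 0.47 ± 0.13 (adjusted p = 0.0157), no longer passed without EoM BM replicate 3 (0.37, adjusted p = 0.148), without EoH BM replicate 4 (0.40, adjusted p = 0.0625) or with the arrays of run 1 alone (adjusted p = 0.0821). From EoH BM to EoH PB the change of 0.37 was not called (adjusted p = 0.0903), but passed without EoH BM replicate 4 (0.45, adjusted p = 0.0446).

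The 2 transporters had a Pearson correlation of 0.95 over the 32 arrays, which fell to 0.46 over the 22 progenitor arrays and was -0.24 over the 10 eosinophil arrays, as a description of arrays that share runs and normalisation. Within eosinophils Slc2a1 was highest in EoH PB, where Slc2a3 was at about its level in EoM BM.

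Hk2, the inducible hexokinase of muscle and of growing cells, rose with the transporters. Its levels of 11.45, 11.36 and 11.67 in IL5T EoPs were followed by 13.19, 13.49 and 13.47 in EoM BM, a change of 1.89 ± 0.17 (3.71-fold, adjusted p = 2.82e-09). All eosinophil arrays lay above all progenitor arrays. In EoH BM it was at 13.62, 13.17, 13.53 and 13.79 and in EoH PB at 13.48, 13.95 and 13.70, and the changes of 0.14 and 0.18 between these neighbours were not called, with 95% intervals of -0.12 to 0.41 and -0.08 to 0.45. The probe of Hk2 was annotated to the gene on version 1.1 only, and that of Pgk1 on version 2.0 only.

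Hk3, a hexokinase mainly of myeloid cells, had a pattern of its own. It was at 12.03, 12.27, 12.04, 12.08 and 12.27 in IL5T GMPs, and at 9.88, 9.64 and 9.93 in IL5T EoPs, which was lower on every array (-2.32 ± 0.26, 5.01-fold lower, adjusted p = 4.52e-07). It rose in EoM BM, to 11.45, 10.93 and 11.59 (1.50 ± 0.33, adjusted p = 0.000822), and was lower again in EoH BM, at 10.39, 9.74, 9.04 and 9.90 (-1.55 ± 0.24, adjusted p = 0.000107; 0.0342 within run 1), with no overlap in either step. The EoH PB arrays read 8.56, 9.20 and 9.30. Compared with EoH BM this was -0.75, which was not called (adjusted p = 0.0789), but passed without EoH BM replicate 3 (-0.99, adjusted p = 0.00595) and without WT CMP replicate 2 (adjusted p = 0.0386). The neutrophil granule markers given above were also higher in EoM BM than in EoPs, by a median of 6.82 over 5 genes, of which 4 were called, but from EoM BM to EoH BM, where Hk3 fell, their median change was -0.06 and none was called. Their part in the level of Hk3 was not tested.

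Hk1, the broadly expressed hexokinase, gave opposite answers on its 2 probes. On ILMN_2644025, the brighter of them over all arrays, it was at 8.71, 8.64 and 8.24 in IL5T EoPs and was not detected on any of the 10 eosinophil arrays, where it read 5.55 to 6.29. It was detected on all 22 progenitor arrays. The fitted change of this probe was -2.40 from EoP to EoM BM (adjusted p = 6.45e-07) and -2.62 from EoP to EoH BM (adjusted p = 7.15e-08). As the probe was not detected in eosinophils, the size of the fall depended on the background correction. These changes were -1.66 and -1.82 without background correction, and -1.85 and -1.96 with an offset of 50. Without a version term they were -4.28 and -4.50, and all of them were called. On ILMN_1245048 the 3 IL5T EoP arrays read 5.71, 5.11 and 5.57, with 2 of 3 detected, and the EoM BM arrays 7.54, 7.90 and 7.78, a rise of 2.27 ± 0.39 (4.84-fold, adjusted p = 3.89e-05). That probe read 6.43, 7.21, 8.22 and 7.05 in EoH BM and 6.46, 5.72 and 6.24 in EoH PB. From EoM BM to EoH PB it fell by 1.60 (adjusted p = 0.000368; 0.0341 within run 1). Between EoH BM and EoH PB it fell by 1.09 (adjusted p = 0.0183), which did not hold when EoH BM replicate 3 was left out (-0.76, adjusted p = 0.0726), without EoH PB replicate 2 (adjusted p = 0.146) and within run 1 (adjusted p = 0.232). With the mean of both probes, the change from EoP to EoM BM was -0.06 (adjusted p = 0.901), so the call on Hk1 rests on the choice of probe. The first probe was brighter by 1.88 on version 2.0, in run 3, than on version 1.1, in run 2, the largest version effect among the 11 probes. Where in the transcripts of Hk1 each probe lies was not determined.

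**Figure D2:**
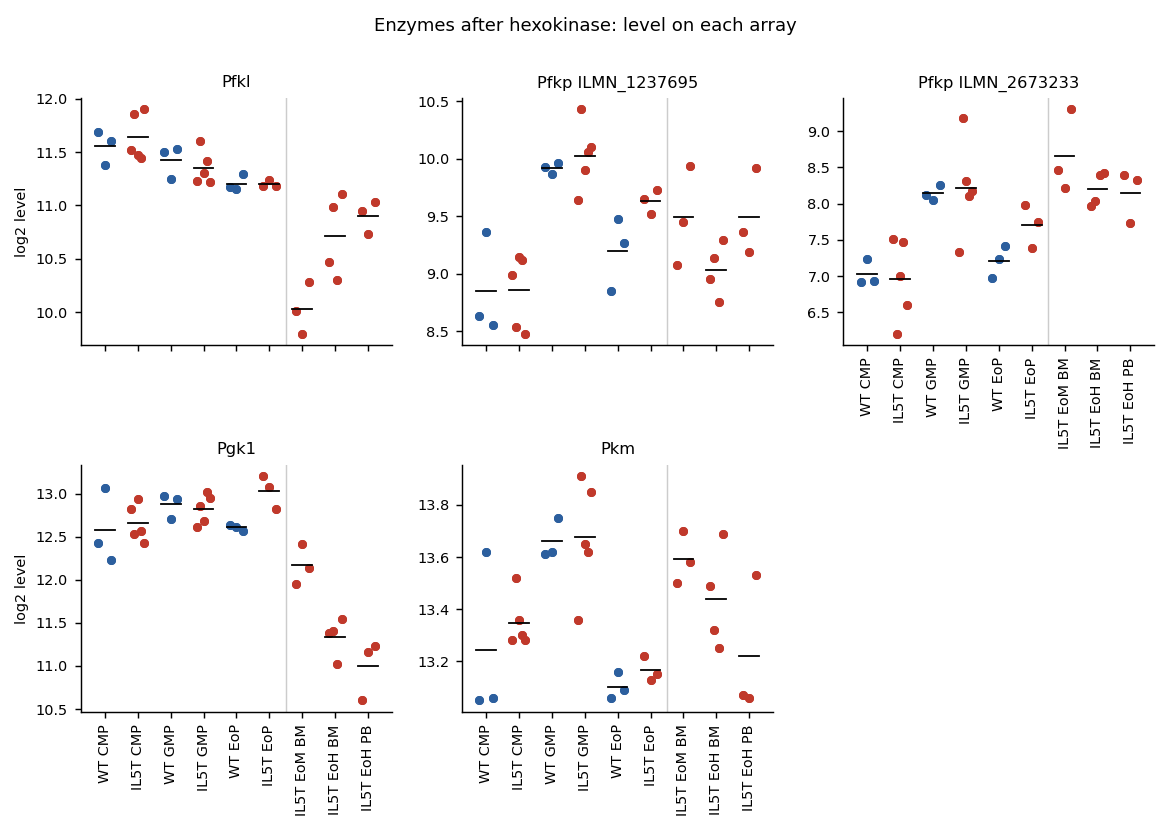
Log2 level (y axis) of the 5 probes of Pfkl, Pfkp, Pgk1 and Pkm on each array (points) by group (x axis), with the group mean as a line, IL5T in red and WT in blue. Pfkl is lowest in EoM BM, Pgk1 is lower on all EoH BM and EoH PB arrays than on any progenitor array, and Pkm spans 0.861 over all arrays.

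The later enzymes did not follow the transporters. Pgk1, the phosphoglycerate kinase of somatic cells, was at 13.20, 13.08 and 12.82 in IL5T EoPs and fell at the next 2 steps. It read 11.95, 12.42 and 12.14 in EoM BM, 11.38, 11.40, 11.02 and 11.54 in EoH BM, and 10.60, 11.16 and 11.23 in EoH PB. There was no overlap between EoPs and EoM BM (-0.86 ± 0.25, adjusted p = 0.00786) or between EoM BM and EoH BM (-0.83 ± 0.18, adjusted p = 0.00322; 0.049 within run 1). From EoP to EoH BM the change was -1.70 ± 0.24, or 3.24-fold lower (adjusted p = 1.96e-06). The last step, of -0.34, was not called (adjusted p = 0.421).

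Pfkl, the liver-type phosphofructokinase subunit, fell and partly returned. It was at 11.18, 11.24 and 11.18 in IL5T EoPs, 10.01, 9.80 and 10.28 in EoM BM, 10.47, 10.99, 10.30 and 11.11 in EoH BM and 10.95, 10.73 and 11.03 in EoH PB. EoM BM was below EoPs (-1.17 ± 0.22, 2.25-fold lower, adjusted p = 0.000131) and EoH PB was above EoM BM (0.88 ± 0.17, adjusted p = 0.000531; 0.0396 within run 1), without overlap. The rise of 0.69 between EoM BM and EoH BM (adjusted p = 0.00627) did not pass within run 1 (adjusted p = 0.132) or without EoM BM replicate 2 (0.58, adjusted p = 0.0577).

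Pfkp, the platelet-type subunit, read 9.65, 9.52 and 9.73 in IL5T EoPs and 9.08, 9.45 and 9.94 in EoM BM on its brighter probe, which overlapped (-0.14, 95% interval -0.79 to 0.51, adjusted p = 0.826). On the dimmer probe the change was 0.96 (adjusted p = 0.123). Pkm, which encodes the pyruvate kinases M1 and M2, was the member that varied least, with 13.22, 13.13 and 13.15 in IL5T EoPs, 13.50, 13.70 and 13.58 in EoM BM and a difference of 0.58 between its highest and lowest group means. Its change of 0.43 from EoP to EoM BM missed the threshold (adjusted p = 0.104). Both Pkm isoforms come from this gene, and one probe does not tell them apart.

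**Figure D3:**
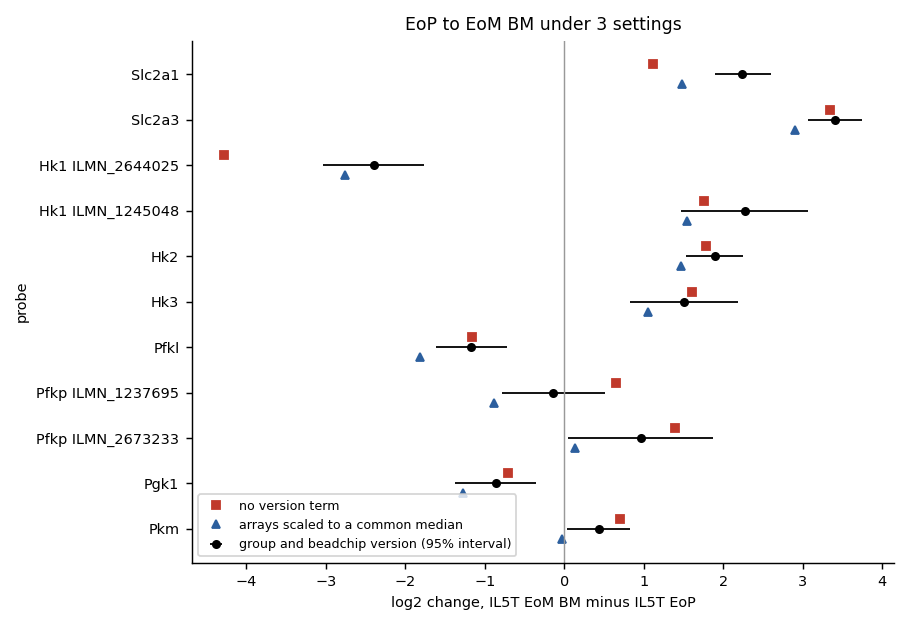
Log2 change from IL5T EoP to IL5T EoM BM (x axis) of each probe (y axis), fitted with group and beadchip version (black, 95% interval), without the version term (red squares) and after scaling each array by its median instead of quantile normalisation (blue triangles). The version term moves Slc2a1 between 1.12 and 2.24 and Hk1 ILMN_2644025 between -4.28 and -2.40, and no called probe changes side.

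The size of this step depended on the scaling. When each array was instead brought to 1 shared median, the median change over 7906 detected genes moved from -0.09 to -0.61, and the changes of Slc2a3, Hk2 and Slc2a1 were 2.90, 1.47 and 1.48, still called, and those of Hk1 ILMN_2644025, Pfkl and Pgk1 were -2.76, -1.81 and -1.27, also called, as was Hk3 at 1.05. Pfkp, at -0.14 with quantile normalisation, read -0.89 there and 0.65 without the version term, and so has no settled direction in this step. Pkm likewise read 0.43, -0.03 and 0.70, and without the version term it was called.

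Within the mature cells, 2 of 9 genes rose (Slc2a1 and Pfkl) and 2 fell (Hk3 and Pgk1) from EoM BM to EoH BM, against 4.31% and 5.36% of all genes. On every array 2 genes were higher and 3 lower, against 7.55% and 9.2%. Slc2a1 and Pfkl also rose and Hk3 and Pgk1 also fell from EoM BM to EoH PB, against 8.91% and 8.15%, where 2 were higher and 3 lower on every array, against 14.8% and 12.9%. These comparisons share the EoM BM arrays. From EoH BM to EoH PB none of the 9 genes was called in limma, against 7.12% of all genes in either direction, and 2 of them, Slc2a1 and Hk3, had an unadjusted p under 0.05. No gene of the 9 was apart on all arrays there, against 7.74% of genes higher and 5.6% lower.

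**Figure D4:**
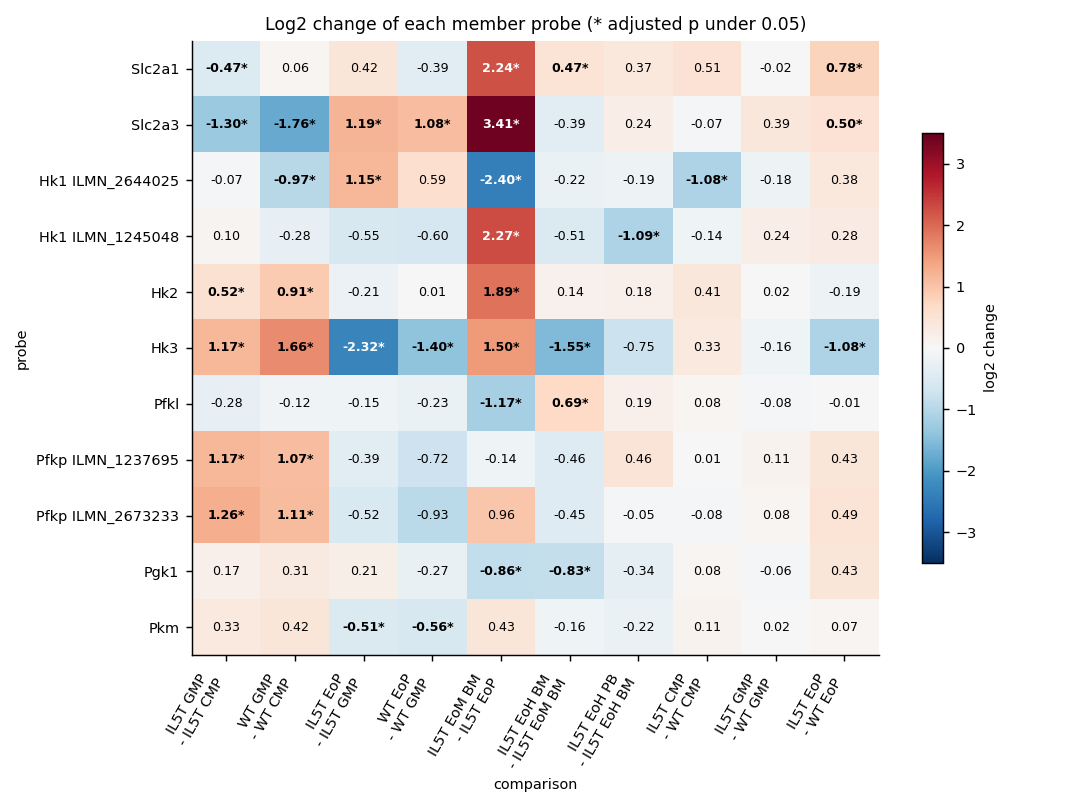
Log2 change (colour and printed value) of each of the 11 probes (y axis) in 10 comparisons (x axis), with an asterisk where the adjusted p was under 0.05. Of these 10 columns, that from EoP to EoM BM holds the largest values, from -2.40 to 3.41, and the column of IL5T against WT GMPs holds no asterisk.

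From CMP to GMP, Hk2, Hk3 and Pfkp rose and Slc2a1 and Slc2a3 fell in IL5T mice, which was 3 of 9 against 5.29% of genes and 2 of 9 against 7.93%. In WT mice Hk2, Hk3 and Pfkp rose (5.06% of genes) and Slc2a3 and Hk1 fell (6.24%). On every array 3 genes were higher and 1 lower in IL5T GMPs than in IL5T CMPs, against 5.67% and 8.36%, and 3 and 2 in WT, against 12% and 12.7%. Markers of other cells differed in this step too. Those of platelets and megakaryocytes had mean levels of 7.00 to 7.96 in IL5T CMPs and 5.16 to 6.08 in IL5T GMPs, and 8.32 to 8.55 and 6.05 to 6.48 in WT, with 3 of 4 genes called lower in each genotype. Of the red cell markers 2 of 4 were called lower in each (median changes -1.30 in IL5T mice and -2.17 in WT), and of the monocyte and macrophage markers 4 of 8 were called higher in each (0.62 and 0.82). Their part in the changes from CMP to GMP was not tested. Slc2a3 was at 10.40, 10.00 and 10.35 in WT CMPs and 8.55, 8.33 and 8.59 in WT GMPs (-1.76 ± 0.13, 3.38-fold lower, adjusted p = 7.9e-10), and in IL5T mice at 10.25, 10.18, 10.05, 10.24 and 10.19 in CMPs against 8.75, 9.06, 8.89, 8.97 and 8.72 in GMPs (-1.30 ± 0.10, adjusted p = 9.67e-10). CMP and GMP arrays did not overlap in either genotype.

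Hk3 rose by 1.66 ± 0.26 in WT (10.25, 11.28 and 10.39 to 12.16, 12.29 and 12.44, adjusted p = 5.76e-05) and by 1.17 ± 0.20 in IL5T mice (adjusted p = 0.000142). Hk2 rose by 0.91 ± 0.14 in WT (adjusted p = 3.32e-05) and by 0.52 ± 0.11 in IL5T mice (adjusted p = 0.000973), again with all GMP arrays above all CMP arrays. The 2 probes of Pfkp went the same way, by 1.17 and 1.26 in IL5T mice and 1.07 and 1.11 in WT, and all 4 changes were called, although the dimmer probe in WT was close to the threshold (adjusted p = 0.0453) and was kept in 13 of 32 fits with 1 array left out.

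Slc2a1 fell by 0.47 in IL5T mice (adjusted p = 0.00208), and in WT the difference was 0.06 (adjusted p = 0.922). When the genotypes were compared in that step, the difference for Slc2a1 was -0.53 (adjusted p = 0.536) and no member was called, against 0.105% of genes. IL5T arrays of both cell types lay in 2 runs, and Slc2a1 differed by -0.45 in run 2 (adjusted p = 0.149) and -0.51 in run 3 (adjusted p = 0.0868), while Slc2a3 fell in both, at -1.26 (adjusted p = 0.00353) and -1.36 (adjusted p = 0.000544), and Hk3 rose in both, by 1.13 (adjusted p = 0.0107) and 1.24 (adjusted p = 0.0126). Hk2 was called in run 2 (0.51, adjusted p = 0.0154) and not in run 3 (0.55, adjusted p = 0.0555), and Pfkp in run 3 (1.28, adjusted p = 0.012) and not in run 2 (1.09, adjusted p = 0.067). Hk1 ILMN_2644025 was at 8.62, 9.13 and 7.87 in WT CMPs and 7.67, 7.36 and 7.67 in WT GMPs (-0.97, adjusted p = 0.00833), a call that was lost without WT CMP replicate 2 (-0.67, adjusted p = 0.0865) or WT GMP replicate 2 (-0.87, adjusted p = 0.0515).

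From GMP to EoP, Slc2a3 rose, by 1.19 ± 0.13 in IL5T mice (adjusted p = 3.85e-07) and 1.08 ± 0.13 in WT, where the EoP arrays read 9.57, 9.52 and 9.62 (adjusted p = 2.18e-06). Hk3 fell in both genotypes, with the IL5T values given above and WT EoPs at 11.00, 10.95 and 10.74 (-1.40 ± 0.26, adjusted p = 0.000588). Neither gene overlapped between GMPs and EoPs of either genotype. From GMP to EoP monocyte and macrophage markers were also lower, with 4 of 8 called in IL5T mice (median change -1.17) and 3 of 8 in WT (-0.68), and mast cell and basophil markers higher, with 2 of 6 called in IL5T mice (0.80) and 3 of 6 in WT (1.46). Their part in the changes of Slc2a3 and Hk3 was not tested. Pkm fell by 0.51 in IL5T mice (adjusted p = 0.0298) and fell by 0.56 in WT (adjusted p = 0.0157). The IL5T call on Pkm was lost when any of EoP replicates 2 and 3 or GMP replicates 4 and 5 was left out (adjusted p up to 0.176, at -0.42), and the WT call without EoP replicate 1 or 3 or GMP replicate 3 (adjusted p up to 0.0724). Hk1 ILMN_2644025 rose in IL5T mice by 1.15 (adjusted p = 0.00195; 0.0562 in run 3 alone), and its change of 0.59 in WT was not called (adjusted p = 0.152). In all, 2 genes rose and 2 fell in IL5T mice, against 5.51% and 5.66% of genes, and 1 rose and 2 fell in WT, against 5.12% and 5.75%. On every array 3 genes were higher and 2 lower in IL5T mice, against 10.9% and 11.7%, and 2 and 5 in WT, against 13.4% and 17.1%. Slc2a1 differed by 0.42 in IL5T mice (adjusted p = 0.0519) and -0.39 in WT (adjusted p = 0.0733). It was called in 7 of 32 fits with 1 array left out in IL5T mice and 1 of 32 in WT. Scaling to 1 shared median moved the median WT change over detected genes from -0.04 to -0.32, and 7 of 9 members were then called in WT, 6 of them lower.

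The comparison of IL5T with WT cells shows these genes under constant IL-5. In EoPs, which carry the IL-5 receptor and were all measured in 1 run, Slc2a1 was at 8.68, 8.56 and 8.43 in WT and 9.36, 9.37 and 9.29 in IL5T mice. The arrays did not overlap, and the rise of 0.78 ± 0.13 (1.72-fold) was called (adjusted p = 0.000404; 0.00264 in run 3 alone). Slc2a3 rose by 0.50 ± 0.13 (1.42-fold, adjusted p = 0.0178), from 9.57, 9.52 and 9.62 to 10.25, 9.73 and 10.23. That call was lost in run 3 alone (adjusted p = 0.054) and without IL5T EoP replicate 1 (0.42, adjusted p = 0.0914), IL5T EoP replicate 3 (adjusted p = 0.0975), WT EoP replicate 1 (adjusted p = 0.0582) or WT EoP replicate 2 (adjusted p = 0.0592). Hk3 was lower in IL5T EoPs on every array (-1.08 ± 0.26, 2.12-fold lower, adjusted p = 0.00968), and without IL5T EoP replicate 2 its adjusted p was 0.05, just over the threshold.

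These were 2 of 9 genes higher against 4.22% of all genes and 1 of 9 lower against 4.15%. On every array 4 genes were higher and 1 lower, against 13.7% and 12.3%. Pgk1 differed by 0.43 (95% interval 0.03 to 0.82, adjusted p = 0.216), and the other 5 genes by -0.19 to 0.43 on their brighter probes, none of them called. Red cell markers moved with genotype in these arrays, with mean levels over 4 genes of 8.50 to 9.22 in WT EoPs and 5.92 to 6.77 in IL5T EoPs and 2 of the 4 called lower, and all 4 were detected on every WT EoP array. Neutrophil granule markers ranged from 6.42 to 8.18 and from 5.95 to 6.69. Their part in these differences was not tested.

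**Figure D5:**
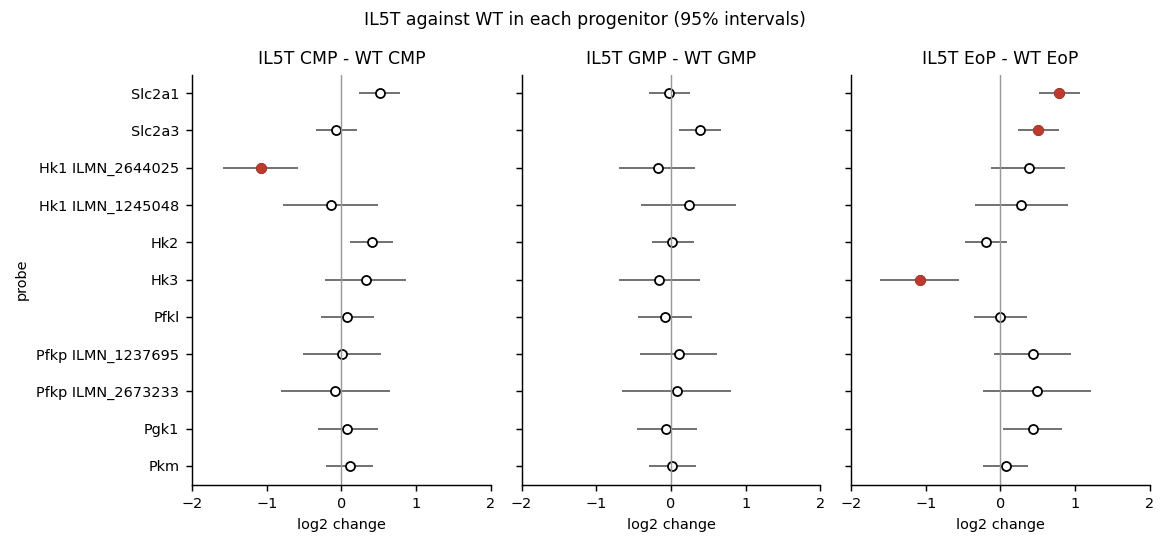
Log2 change of IL5T against WT (x axis) of each probe (y axis) in CMPs, GMPs and EoPs, with 95% intervals and filled points where the adjusted p was under 0.05. Filled points are Hk1 ILMN_2644025 in CMPs and Slc2a1, Slc2a3 and Hk3 in EoPs.

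In GMPs none of the 9 genes was called in limma, against 0.079% of all genes in either direction. Of the 9 genes 1 was higher on every array and none lower, against 4.33% and 4.31%. The change of Slc2a1 there was -0.02 (95% interval -0.30 to 0.26), with WT GMPs at 8.99, 8.77 and 9.06 and IL5T GMPs at 8.79, 9.12, 8.90, 9.18 and 8.62. Slc2a3 was 0.39 higher in IL5T GMPs, on every array, and had the only unadjusted p under 0.05 there (0.00742, adjusted p = 0.671). The effect of the transgene on Slc2a1 was larger in EoPs than in GMPs by 0.80 (adjusted p = 0.0172 for the interaction, against 2.03% of genes called higher and 1.88% lower in it; 0.0393 in run 3 alone). It missed the threshold without IL5T GMP replicate 5 (0.64, adjusted p = 0.0719), WT GMP replicate 3 (0.75, adjusted p = 0.0529) or WT EoP replicate 3 (0.74, adjusted p = 0.0525). For Slc2a3 and Hk3 the corresponding difference was not called.

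In CMPs, Hk1 ILMN_2644025 was lower in IL5T mice, at 7.30, 7.36, 7.96, 7.40 and 7.25 against 8.62, 9.13 and 7.87, with an overlap of IL5T replicate 3 and WT replicate 3 (-1.08 ± 0.24, adjusted p = 0.029, against 0.388% of genes called lower). The call was lost when IL5T CMP replicate 4 or 5, or WT CMP replicate 1 or 2, was left out (adjusted p from 0.119 to 0.163) and in run 3 alone (adjusted p = 0.144), and the second probe changed by -0.14 (adjusted p = 1). The mean level of the red cell markers was 8.52, 10.61 and 9.53 in WT CMPs and 6.75 to 7.98 in IL5T CMPs. The WT values of these markers and of Hk1 are given in replicate order, and 3 arrays cannot show whether they go together. The part of the red cell markers in the difference was not tested. Slc2a1 was higher by 0.51 in IL5T CMPs on every array (adjusted p = 0.0838; 0.0223 without IL5T GMP replicate 5). No gene was called higher, against 0.402% of genes, and on every array 2 were higher and none lower, against 4.39% and 3.88%.

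Other genes of the pathway were taken from lists by role. Of 16 further glycolytic enzymes 13 were measured. From EoP to EoM BM 2 rose and 5 fell, against 15.5% of all genes called higher and 17.5% lower. Their median change was -0.02, against 0.02 over all genes. Adpgk, which phosphorylates glucose with ADP, rose by 3.92 ± 0.35 (adjusted p = 1.49e-09) and fell by 2.67 in EoH BM (adjusted p = 7.38e-08), so that it was high in EoM BM as Hk3 was. It was detected on 2 of 3 EoP arrays, so the size of its rise depends on signal near background. The other that rose, Aldoc, an aldolase named after its value was seen, changed by 2.05 (adjusted p = 0.000229) and then fell by 1.79 in EoH BM (adjusted p = 0.000204). Ldhb, a lactate dehydrogenase subunit, fell by 3.34 ± 0.48 (adjusted p = 3.54e-06), to a level detected on 2 of 3 EoM BM arrays. Pfkm, the muscle phosphofructokinase subunit, fell by 2.48 ± 0.39 (adjusted p = 1.08e-05). Pgam1, a phosphoglycerate mutase with near copies in the genome, was not detected on any EoM BM array. Its fitted change was -2.51 ± 0.67 (adjusted p = 0.00494), of a size that signal near background leaves uncertain. Tpi1 and Eno3, also named after their values were seen, changed by -0.83 (adjusted p = 0.000131) and -1.05 (adjusted p = 0.00961). Gapdh, the enzyme just before Pgk1, changed by 0.12 (95% interval -0.24 to 0.48).

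Of 5 genes that make or remove fructose 2,6-bisphosphate, the activator of phosphofructokinase, 3 were measured. From EoP to EoM BM 2 of these rose and none fell, against 15.5% and 17.5% of all genes. Pfkfb2 and Pfkfb4 rose from EoP to EoM BM, by 1.04 (adjusted p = 0.000227) and 1.01 (adjusted p = 0.00504), and Pfkfb2 rose by a further 0.73 in EoH BM (adjusted p = 0.00203). Pfkfb2 was lower in IL5T than in WT EoPs, by -1.13 (adjusted p = 4.71e-05).

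Among 12 other hexose transporters and monocarboxylate carriers, Slc2a6 and Slc2a9 were those that rose from EoP to EoM BM, by 1.26 (adjusted p = 0.0139) and 1.88 (adjusted p = 1.1e-05), and none fell. The count of 2 of 12 was near the 15.5% of all genes called higher in this step, in which 17.5% were called lower. Both rose again from EoH BM to EoH PB, by 1.63 (adjusted p = 0.000318) and 1.89 (adjusted p = 7.05e-07), the step in which no member was called. Slc2a6 and Slc2a9 encode GLUT6 and the urate carrier GLUT9.

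Of 9 measured genes of glycogen and gluconeogenesis, 2 rose and 3 fell from EoP to EoM BM, against 15.5% and 17.5% of all genes. Pygl, a glycogen phosphorylase, rose by 3.47 ± 0.19 (adjusted p = 4.17e-13) and Ugp2, which makes UDP-glucose, by 1.87 ± 0.16 (adjusted p = 1.24e-09), while G6pc3, a glucose-6-phosphatase needed by neutrophils, fell by 3.66 ± 0.29 (adjusted p = 1.47e-10) and Pgm1 fell by 1.00 (adjusted p = 6.03e-06). Of 10 measured genes of pyruvate entry into mitochondria 3 fell and none rose, against 17.5% and 15.5% of all genes. Those that fell were Pdk1 (-1.64, adjusted p = 6.68e-07) and Pdk3 (-1.22, adjusted p = 2.65e-05), kinases that switch pyruvate dehydrogenase off, and Pdha1, a subunit of that enzyme (-0.57, adjusted p = 0.00186). In the pentose phosphate pathway 5 genes were measured, of which 2 rose and 2 fell, against the same 15.5% and 17.5%. H6pd and Taldo1 rose, by 0.96 (adjusted p = 1.25e-06) and 0.84 (adjusted p = 0.000167), and Rpe and Rpia fell, at -0.82 (adjusted p = 0.00459) and -0.58 (adjusted p = 0.00186).

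Of 15 measured genes of the hypoxia response outside glycolysis, 3 rose and 2 fell from EoP to EoM BM, against 15.5% and 17.5% of all genes. Their median change was 0.34, against 0.02 over all genes. Among the 3 called higher was Adm, which was not detected on any EoM BM array. Bhlhe40, a transcriptional repressor, rose by 2.89 ± 0.34 (adjusted p = 1.66e-07) and Kdm3a, a histone demethylase, by 1.05 (adjusted p = 0.00342). Vegfa, the vascular growth factor, fell by 3.22 (adjusted p = 1.82e-05), to a level detected on 2 of 3 EoM BM arrays. Egln3, a prolyl hydroxylase that marks HIF for destruction, fell by 2.29 (adjusted p = 1.47e-08). From EoM BM to EoH BM 5 rose, among them Vegfa (1.38, adjusted p = 0.0212), Ankrd37 (1.37, adjusted p = 0.00712) and P4ha1 (1.03, adjusted p = 0.0122), and 2 fell, Ndrg1 (-0.96, adjusted p = 0.0275) and Adm, which was detected on no array of either group and is named after its value was seen (-0.36, adjusted p = 0.0405). Ankrd37 was detected on 1 EoM BM array and Vegfa on 2. In this step 4.31% of all genes were called higher and 5.36% lower. The median change of the 15 was 0.04, against 0.00 over all genes. Bhlhe40 was also higher in IL5T than in WT EoPs, by 2.30 ± 0.27 (adjusted p = 2.91e-06), and in IL5T than in WT CMPs, by 1.35 (adjusted p = 0.0106). No list was tested as a set, and the shares of all genes called in each step are those given above.

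By their levels over all 32 arrays, the genes most like Slc2a1 among 9896 probes were C4a, Ak8, Tmem154, Ptafr and Cdkn2b, with Pearson correlations of 0.980 to 0.983, and those most like Slc2a3 were Camk2d, Carhsp1, Dennd3, Fam102a and Unc119, at 0.976 to 0.984. The arrays share runs and normalisation, correlations within progenitors or eosinophils were not computed for these genes, and C4a has a near copy, C4b.

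In the order of group means, the eosinophils stood at opposite ends for different members. Slc2a1, Slc2a3 and Hk2 had their 3 highest means in the 3 eosinophil groups, and Hk1 ILMN_2644025, Pfkl and Pgk1 their 3 lowest. For Slc2a1 the order ran from WT EoPs through WT CMPs, IL5T GMPs, WT GMPs, IL5T EoPs and IL5T CMPs to EoM BM, EoH BM and EoH PB, and neighbours were apart on all arrays at 4 of 8 places. Slc2a3 ran from WT GMPs, IL5T GMPs and WT EoPs through IL5T EoPs, IL5T CMPs and WT CMPs to EoH BM, EoH PB and EoM BM, of which the 3 last overlapped. For Hk3 both GMP groups were highest and EoH PB lowest, and for Pkm every pair of neighbours overlapped.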

How the data were processed

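The authors deposited the scanner intensity of every probe on Illumina MouseWG-6 beadchips, not normalised between arrays, with a detection p-value for each, and the authors' log2 values of 24159 probes on both versions, made by normexp correction of background followed by quantile normalisation. Whether a background had been subtracted from the intensity is not stated. Here the intensity was corrected with limma 3.58.1 in R 4.3.3 (normexp, negative controls inferred from detection p-values, each version apart, offset 16) and quantile normalised over 32 arrays, which differed from the deposited log2 values by at most 0.163. limma was fitted with 9 group means and beadchip version, with 22 residual degrees of freedom. The version effect was removed from printed levels. Probes were named by the platforms' annotation updated to RefSeq symbols, and the probe with the highest mean stood for its gene. The members, lists and comparisons were chosen with earlier results of these data known. All members are named, up to 4 called genes of each list per comparison, and the 5 genes most like each transporter. The fit was tested on simulated data. The paper describes the arrays as independent replicates, each from a pool of mice. The p-values thus measure the spread between these pools, whose number limits the precision. Whether arrays of different groups share mice is not stated. Alternatives covered the deposited values, background correction, scaling, filters, the version term, runs, weights, the replicate number, a minimum change and each array left out. Figures used Python 3.11.15 with matplotlib 3.10.9.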

Additional observations from a re-analysis of the deposited data

Results flagged for a closer look

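In IL5T CMPs, Hk1 ILMN_2644025 read 7.96 on replicate 3, apart from the other 4 arrays at 7.25 to 7.40. This was the only array apart among 33 sets of 4 or 5 arrays checked for the members, and chance sets a share of about 0.05 of such sets apart. The rise of Slc2a1 with the transgene was larger in EoPs than in GMPs by 0.80 on the log2 scale (adjusted p = 0.0172 from limma), the only call among 22 such tests on the member probes.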

How the results depend on the processing

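No member changed direction where it was called. The count of the 9 genes called changed by over 1.5 times in the following cases. From EoH BM to EoH PB it was 0, and 1 with only detected probes, array weights, a trended and robust variance, the replicate block or the mean over a gene's probes, and 0 to 1 with an array left out. For IL5T against WT CMPs it was 1, and 0 with a common median, run 3 alone, array weights, the replicate block, a minimum change of 0.5 or the mean over probes, and 0 to 2 with an array left out. The difference in transgene effect between EoPs and GMPs gave 1, and 2 with a common median, 0 with the replicate block or the minimum change, and 0 to 1 with an array left out. From WT GMP to EoP, 3 became 7 with a common median and 5 with array weights. From IL5T CMP to GMP, 5 became 3 in run 2, in run 3 and with the minimum change. From EoM BM to EoH BM, 4 became 2 in run 1 alone and 1 with the minimum change. From IL5T GMP to EoP, 4 became 2 with the replicate block and 2 with the minimum change. With the minimum change, EoM BM to EoH PB went from 4 to 2, WT CMP to GMP from 5 to 2, and IL5T against WT EoPs from 3 to 0. The cause of these changes was not tested, beyond the fewer arrays of single runs and the stricter null of the minimum change. Nothing says whether replicate numbers pair the arrays. Deviations of equal numbers correlated between -0.66 and 0.46. With few arrays per group, and with deviations taken after the version effect was removed, these values cannot show whether the numbers pair arrays. The replicate block left 5 of 9 called from EoP to EoM BM in place of 7, without Hk3 and Pgk1. Signal near background limits both Hk1 probes.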
